A study of Drosophila melanogaster with 2 samples.

Results

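Isolated single bins of H3K9me2 loss are stretches of 300 bp in which the mutant library EHMTDD1 had far fewer tags than the control library EHMT+ while the bin on either side did not reach the same ratio. They were chosen by measured tag counts. The arms used were 2L, 3L, 3R and X, each shortened by 1 Mb next to its centromere. A tag of 300 bp added 1 to all bins that it touched. A bin was taken when the log2 ratio of (EHMT+ tags plus 1) to (EHMTDD1 tags plus 1) was above 1.9, which is 3.73-fold, when EHMT+ had 20 or more tags and when neither of its 2 neighbours was above 1.9. Of 312895 bins, 249616 had 20 or more EHMT+ tags, and 4257 were isolated by this rule.

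The data were 1 ChIP-seq library of dimethylated lysine 9 of histone H3 (H3K9me2) for each genotype, from whole Drosophila larvae at the third instar. EHMT+ was a line in which a P element in the 5′ UTR of EHMT had been excised precisely. EHMTDD1 was a line from an imperfect excision of the same element in the same genetic background, which removed DNA downstream of the insertion together with the translational start site of EHMT. Each genotype was 1 excision line, the whole larva mixes all its tissues, and the number and sex of the larvae are not given in the sources used here. The deposited positions held 7043913 tags in each library, of which 5063556 (71.9%) of EHMT+ and 5015303 (71.2%) of EHMTDD1 lay on the 4 arms. The median was 28 tags per bin in both libraries. With 1 library per genotype no difference has a replicate check, no p-value is given, and intervals are 95% intervals that cover counting error only.

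EHMT, also called G9a, is an enzyme that adds methyl groups to lysine 9 of histone H3, mainly in the gene-bearing euchromatin. H3K9me2 is best known as a mark of condensed and silent chromatin, where it is read by chromatin proteins that bind methylated lysine 9. No library of input chromatin or total H3 was used here, so fewer nucleosomes and less methylation per nucleosome cannot be told apart. No genome sequence or gene annotation of BDGP Release 5, the build of the positions, was used here, and the sequence and the genes at these bins are not given.

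Among the 249616 bins with 20 or more EHMT+ tags, 11597 (4.65%) were above the limit and 4257 (1.71%) were isolated. The isolated bins made up 36.7% of the bins above the limit with this many tags (exact binomial interval 35.8 to 37.6%, which treats bins as independent). The other 7340 bins lay beside another bin above the limit. A further 1657 isolated bins were above the limit but had fewer than 20 EHMT+ tags, and these were not taken. These counts describe the rule and hold no test.

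In EHMT+ the isolated bins had a lowest count of 20 tags, a median of 30 and a highest of 139. All bins with 20 or more EHMT+ tags had a median of 32, so the control level at isolated bins was close to that of the whole set. In EHMTDD1 they had from 0 to 33 tags with a median of 5, against a median of 31 over all bins with 20 or more EHMT+ tags. EHMTDD1 had 0 tags in 83 isolated bins (1.95%), 1 to 4 tags in 1790, 5 to 9 tags in 2024 and 10 or more in 360. Most isolated bins were thus still touched by a few tags in the mutant, whose midpoints can lie outside the bin. The log2 ratio had a median of 2.35 and a 5th to 95th percentile range of 1.94 to 3.70.

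Many members lay close to the limit. Between 1.9 and 2 there were 650 isolated bins, and 778 bins that met every other condition had a ratio between 1.8 and 1.9. The 3 members with the lowest ratio, on 3L from 19907701 to 19908000 and from 20730901 to 20731200 and on X from 317101 to 317400, each had 55 EHMT+ tags and 14 EHMTDD1 tags, a ratio of 3.93. The 3 bins just below the limit, on 2L from 1704001, 13258801 and 13260001, each had 40 and 10 tags. The bins on both sides of the limit were alike in ratio, and the limit parts a continuous range.

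Averaged over the 4257 isolated bins, the tag profiles of the libraries had different shapes. Each tag was placed at the midpoint of its 300 bp, so that it counted once, in steps of 25 bp over 1.5 kb on each side of the bin centre. EHMTDD1 had a deep and nearly symmetric dip. Its lowest level was 5.84 tags per kb, which was 10.8% of its own level of 53.9 tags per kb at 1000 to 1500 bp from the centre. EHMT+ had only a shallow dip, with a lowest level of 53.0 tags per kb against 57.6 tags per kb at the same distance, or 92.0%. Within 300 bp of the centre EHMT+ was 0.952 times its level at 1000 to 1500 bp. Over all bins with 20 or more EHMT+ tags it was 1.07 times, so the control was lower at isolated bins than in that set. The depth at the centre follows from the rule, while the levels beyond 600 bp were not used by it, since a tag that touches the bin or its neighbours has its midpoint within 600 bp of the centre.

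**Figure D1:**
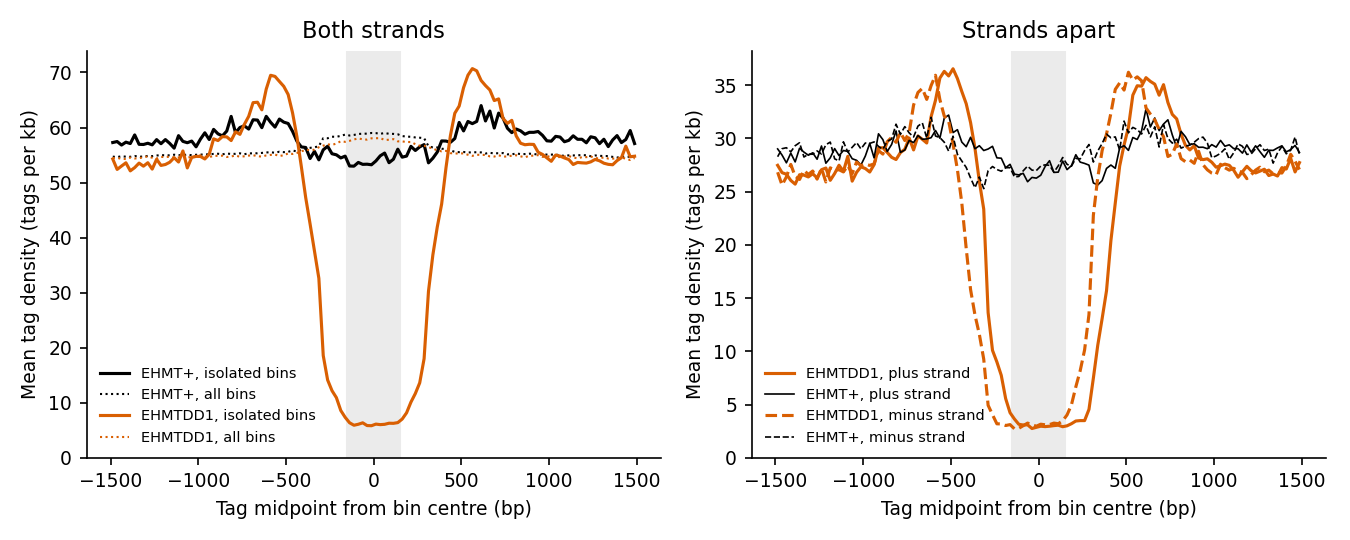
Mean tag density (tags per kb, tag midpoints) against distance from the bin centre (bp) over the 4257 isolated bins, with both strands on the left, beside the mean over all 249616 bins with 20 or more EHMT+ tags (dotted), and each strand on the right. The grey band is the 300-bp bin, and the EHMTDD1 line falls to 5.84 tags per kb between shoulders of 69.5 and 70.7 tags per kb while EHMT+ stays at 53.0 or more.

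Midway between its lowest density and its level at 1000 to 1500 bp, the mean EHMTDD1 dip was 619 bp wide and reached from 308 bp left of the centre to 312 bp right of it. The density reached 25% of the level at 1000 to 1500 bp by 262.5 bp from the centre and 100% by 437.5 bp, on both sides. The rule counts tags with midpoints up to about 300 bp from the centre, so a width near 600 bp was in part set by the rule. The step of the profile near 300 bp coincides with the end of the counted range. When tags were counted once by midpoint to choose the bins, the width was 348 bp, and with only the 36 bp that were read it was 439 bp. The width thus changed with the way tags were counted. These settings also changed the members, to 3017 bins by midpoint and 3373 with the 36 bp. The part of each change was not tested.

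The strands placed the dip at different positions. EHMTDD1 tags on the plus strand had their dip centred 44.4 bp right of the bin centre, and tags on the minus strand had theirs at −43.1 bp, a distance of 87.5 bp between the strands. Each strand alone gave a width of 670 or 669 bp, wider than the dip of both together. The midpoints take every fragment to be 300 bp long, and the fragment lengths were not tested. Within the bins, whose tags the rule used, EHMT+ had 69795 plus and 69923 minus tags against 11388 and 11256 in EHMTDD1. This split by strand describes the chosen bins and is no separate sign of loss.

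Single members varied around this mean. Their widths and empty stretches describe the chosen bins, since the rule required many EHMT+ tags and few EHMTDD1 tags at the centre. For each bin a running sum of tags over 150 bp was compared with the bin's own level at 1000 to 1500 bp, and the width was the stretch below 50% of that level. In EHMTDD1 the 3949 bins with 20 or more tags at 1000 to 1500 bp had a median width of 600 bp, with the 5th and 95th percentiles at 300 and 1050 bp, and 2295 of them (58.1%) lay between 450 and 750 bp. The other 308 had too few tags there for a width. In EHMT+, 2143 of 4228 bins (50.7%) did not fall below 50% of their level at the lowest point, and the 95th percentile was 325 bp. Widths from 450 to 750 bp were found at 74 bins (1.75%) in EHMT+.

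**Figure D2:**
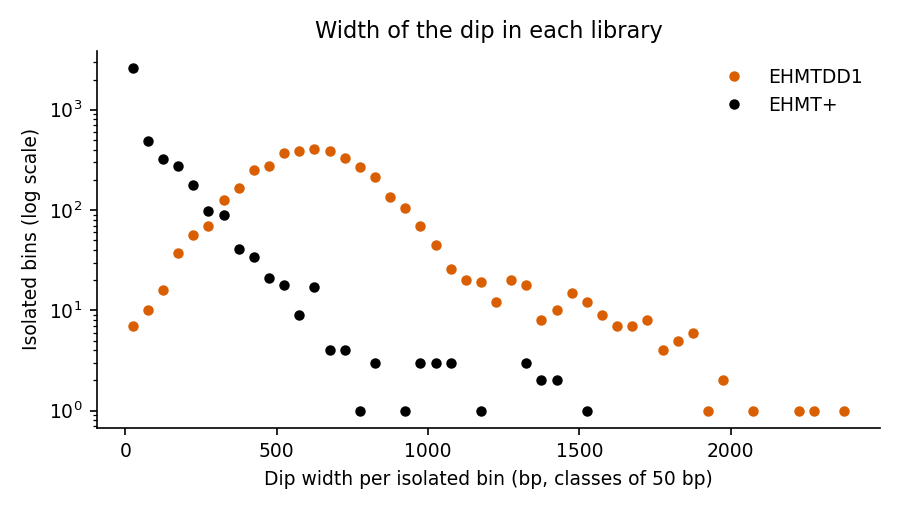
Number of isolated bins (log scale) by dip width in classes of 50 bp, for EHMTDD1 (orange, 3949 bins) and EHMT+ (black, 4228 bins), with empty classes left out. The EHMTDD1 widths gather around a median of 600 bp, while 2143 EHMT+ bins have a width of 0.

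The longest stretch without a tag midpoint near the bin centre, which the rule also bears on, had a median of 86 bp in EHMT+ and 358 bp in EHMTDD1, and it was 300 bp or longer at 2871 isolated bins (67.4%) in EHMTDD1 and at 37 bins (0.869%) in EHMT+. The longest stretches reached from the bin into long parts without tags, of 9037 bp in EHMT+ and 9493 bp in EHMTDD1.

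In EHMTDD1 the dips were framed by shoulders. The highest mean densities were 69.5 tags per kb at 587.5 bp left of the centre and 70.7 tags per kb at 562.5 bp right of it. From 600 to 900 bp, outside the range that the rule counted, EHMTDD1 had 61.6 tags per kb, 1.14 times its level at 1000 to 1500 bp (1.14 to 1.15). In EHMT+ the same comparison gave 60.5 tags per kb and 1.05 times (1.04 to 1.06), and over all bins with 20 or more EHMT+ tags it gave 1.01 times in both libraries. Over all isolated bins the shoulder was thus present in both libraries and larger in the mutant. The stretch from 600 bp adjoins the neighbours that the rule kept at or below 1.9, so the shoulder is not independent of the rule. Across members it was a matter of more or less, with 2523 of 4257 bins (59.3%) higher at 600 to 900 bp than at 1000 to 1500 bp in EHMTDD1 and 2401 (56.4%) in EHMT+, against 49.7% and 49.9% of all bins with 20 or more EHMT+ tags.

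The tags beside the dip were fewer than those missing within it. Against its own level at 1000 to 1500 bp, EHMTDD1 had 29.9 tags fewer per isolated bin within 400 bp of the centre and 9.19 tags more from 400 to 1000 bp, which is 30.8% of the deficit. The deficit was set by the rule, and the tags from 400 to 600 bp also lie in the range it counted, so this share is a description of the chosen bins. In EHMT+ the same sums were 2.13 tags fewer and 2.77 tags more. From 600 to 1500 bp the libraries together held 449390 EHMT+ and 433835 EHMTDD1 tags, a ratio of 1.04 (1.03 to 1.04), against 1.01 around all bins with 20 or more EHMT+ tags. The ratio changed with distance. It was 0.982 (0.975 to 0.989) from 600 to 900 bp, 1.06 (1.05 to 1.07) from 900 to 1200 bp and 1.07 (1.06 to 1.08) from 1200 to 1500 bp. From 1500 to 5000 bp it was still 1.06. Beyond the shoulders the mutant level was slightly below the control, against 6.14-fold within 300 bp of the centre, which the rule used.

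Longer regions of loss, which also end beside bins at or below 1.9, had a shoulder too. Measured from the outer edge of a region, at 450 to 750 bp against 850 to 1350 bp, the EHMTDD1 ratio was 1.14 at isolated bins, 1.12 (1.11 to 1.13) at 1371 runs of 2 bins, 1.17 (1.15 to 1.20) at 413 runs of 3 bins and 1.13 (1.10 to 1.15) at 306 runs of 4 or more bins, all with 20 or more EHMT+ tags in every bin. The interval of isolated bins, 1.14 to 1.15, overlapped those of runs of 3 bins and of 4 or more bins, and lay above that of runs of 2. In EHMT+ the values lay between 1.05 and 1.06 for all 4 kinds of region. The level of the surroundings differed more. From 450 to 1350 bp beyond the edge, the ratio of EHMT+ to EHMTDD1 was 1.04 at isolated bins, 1.09 (1.08 to 1.10) at runs of 2, 1.14 (1.12 to 1.15) at runs of 3 and 1.20 (1.18 to 1.22) at runs of 4 or more. The intervals do not overlap, but they cover counting error of pooled tags and not the spread between regions. Among these 4 kinds of region isolated bins had the smallest loss around them. The kinds are divided by how far the loss reaches, so this order is not independent of the division. Longer runs also lay in places of higher EHMT+ level, with 57.6 tags per kb at 850 to 1350 bp from isolated bins and 70.0 tags per kb from runs of 4 or more, and its part in the order was not tested.

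**Figure D3:**
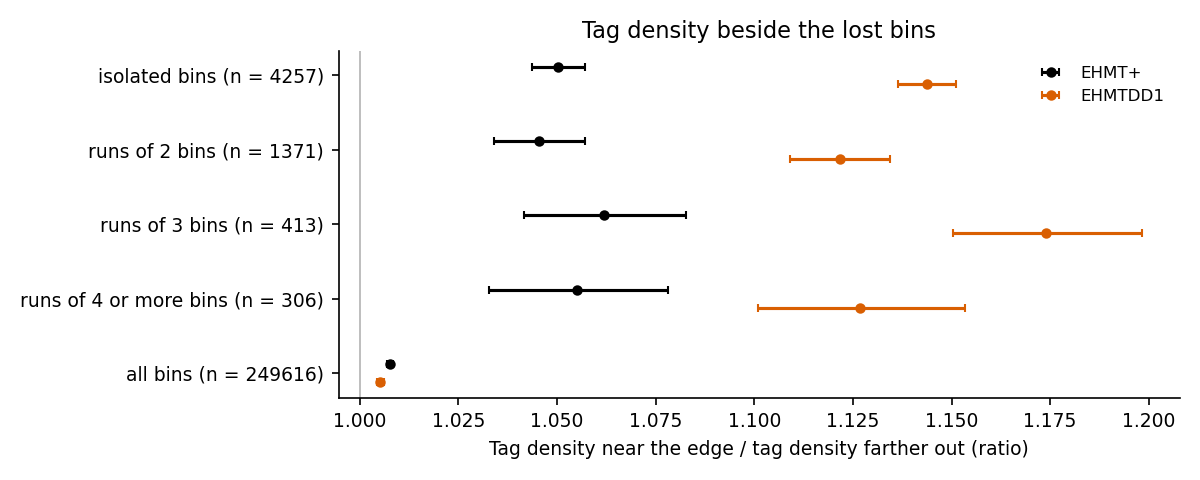
Tag density at 450 to 750 bp from the outer edge of a region divided by that at 850 to 1350 bp, for isolated bins, longer runs and all bins with 20 or more EHMT+ tags, in EHMT+ (black) and EHMTDD1 (orange). Points are ratios of summed tags and bars are exact 95% intervals for counting error, and EHMTDD1 lies at 1.12 to 1.17 at isolated bins and runs and at 1.01 over all bins.

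The neighbours separated kinds of isolated bin. The rule only keeps them at or below 1.9, and the 8514 neighbours had a median log2 ratio of 0.86, with a 5th to 95th percentile range of −0.07 to 1.77. A neighbour shares with the member every tag that touches both, so its ratio is in part set by the rule. By midpoint, tags 300 to 600 bp from the centre, which do not touch the member, had a ratio of EHMT+ to EHMTDD1 of 1.04 (1.03 to 1.04). At 1389 isolated bins (32.6%) both neighbours were below 1, at 2065 (48.5%) 1 was, and at 803 (18.9%) both lay between 1 and 1.9. A neighbour above 1.5 was found at 1289 bins (30.3%), which were isolated by a narrow margin. The shoulder went with this division. At 600 to 900 bp from the centre, EHMTDD1 was 1.21 times its level at 1000 to 1500 bp (1.20 to 1.23) where both neighbours were below 1, 1.14 (1.13 to 1.15) where 1 was, and 1.03 (1.01 to 1.04) where neither was. EHMT+ followed the same order with 1.08 (1.06 to 1.09), 1.04 (1.03 to 1.05) and 1.02 (1.01 to 1.04), so where both neighbours lay between 1 and 1.9 the intervals of the libraries overlapped. In the same order the ratio of EHMT+ to EHMTDD1 from 600 to 1500 bp was 0.973 (0.966 to 0.980), 1.04 (1.04 to 1.05) and 1.14 (1.13 to 1.15). Bins with both neighbours below 1 had slightly more mutant than control tags around them, and bins with both neighbours above it had fewer. Neighbouring bins and the stretch from 600 bp adjoin, so these values are not independent of the division.

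Where the bins begin decided which places counted as isolated. With bins moved by 150 bp, 4253 isolated bins were found in place of 4257, yet only 1869 members (43.9%) overlapped an isolated bin of the moved grid, and 2715 (63.8%) overlapped any bin above the limit. With a move of 50 bp the shares were 65.6% and 78.2%. Sliding the bin in steps of 25 bp, the stretch over which it stayed above 1.9 had a median of 250 bp and a highest value of 575 bp, and at 675 members (15.9%) it was 100 bp or shorter. The number of isolated bins hardly moved with the grid, while the places counted as isolated did.

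The share of bins that were isolated fell with the control level. It was 2.12% of bins with 20 to 24 EHMT+ tags, 1.94% with 25 to 29, 1.61% with 30 to 39, 1.37% with 40 to 59 and 1.10% with 60 or more. Over the same classes the share above the limit went from 5.21% to 4.65%, with its lowest value of 4.23% at 40 to 59 tags, so that isolated bins made up 40.6% of the bins above the limit in the lowest class and 23.6% in the highest. The dip was 608 to 631 bp wide in every class, and a width near 600 bp is in part set by the rule. The EHMTDD1 shoulder was 1.16, 1.13, 1.13, 1.17 and 1.14 in these classes. The lowest EHMTDD1 density went from 6.61% to 14.7% of the surrounding level, which the limit on a ratio with 1 added to both counts in part sets.

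Isolated bins were present all along the arms. In 92 complete windows of 1 Mb they numbered from 15 to 79 with a median of 46, and none was without one. The lowest share of bins with 20 or more EHMT+ tags was 0.586% on 3R from 24000001 to 25000000, with 15 members, and the highest was 3.15% on 2L from 21000001 to 22000000, with 79 members, the last complete window before the excluded end. That window on 2L also had the most bins above the limit of any kind, 320 with 20 or more EHMT+ tags, so its peak was not particular to isolated bins. By arm the share was 1.74% on 2L (993 bins, exact interval 1.63 to 1.85%), 1.83% on 3L (1153 bins, 1.72 to 1.94%), 1.49% on 3R (1081 bins, 1.41 to 1.58%) and 1.81% on X (1030 bins, 1.70 to 1.92%). The interval of 3R lay below those of the other 3 arms, which overlapped each other. These intervals treat bins as independent and are too narrow. Arm 3R also had the fewest bins above the limit of any kind, 2720 of its 72436 bins with 20 or more EHMT+ tags. The counts of 2L, 3L and X were 2892 of 57065, 3010 of 63081 and 2975 of 57034. Isolated bins made up 39.7% of the bins above the limit in 3R, the largest part of any arm. In 2L, 3L and X they made up 34.3%, 38.3% and 34.6%. The low share of 3R was thus not particular to isolated bins.

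The arms were alike in the width of the dip, which the rule in part sets, and differed around it. The width of the mean dip, taken midway as before, was 612 bp for 2L, 616 bp for 3L, 625 bp for 3R and 621 bp for X. The EHMTDD1 shoulder was 1.16 (1.15 to 1.18) on 2L and 1.18 (1.17 to 1.20) on 3L, above 1.11 (1.10 to 1.13) on 3R and 1.12 (1.10 to 1.13) on X. From 600 to 1500 bp the ratio of EHMT+ to EHMTDD1 was 1.05 on 2L, 3L and X and 0.996 (0.988 to 1.00) on 3R. Around all bins with 20 or more EHMT+ tags it was 1.02 for 2L, 1.00 for 3L, 0.978 for 3R and 1.03 for X, so 3R was also the lowest arm there.

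Consecutive isolated bins on an arm lay 13200 bp apart in the median and 22015.8 bp in the mean, with a range from 600 to 326400 bp and an SD of 1.24 times the mean. By arm the median was 12900 bp for 2L, 12000 bp for 3L, 14400 bp for 3R and 12300 bp for X. The nearest other member was within 1500 bp at 544 bins (12.8%) and within 3000 bp at 1157 bins (27.2%). Counted by distance, 28 consecutive pairs were 600 bp apart, 95 were 900 bp, 85 were 1200 bp, 74 were 1500 bp, 64 were 1800 bp and 84 were 2100 bp. Up to 6000 bp the count was highest at 900 bp, and from 4500 to 6000 bp it lay between 46 and 58 pairs. No expected count was computed, so an excess at any spacing was not tested. The low count at 600 bp is partly fixed by the rule, since the bin between such a pair must stay at or below 1.9.

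From 900 bp outward, bins near an isolated bin exceeded the limit more often than bins in general. Over all 312895 bins the share above 1.9 was 5.02%. It was 1.62% at 600 bp from an isolated bin, where the counted tags still overlap those of the neighbours, 5.49% at 900 bp, and between 6.51% and 7.06% from 1200 to 3600 bp. It was 6.59% at 15000 bp and 5.86% at 30000 bp. The excess over the whole set was small and reached beyond the shoulders. The median log2 ratio was 0.00 at 600 and 900 bp, between 0.06 and 0.10 from 1200 to 3600 bp and 0.00 at 30000 bp, against 0.00 over all bins.

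**Figure D4:**
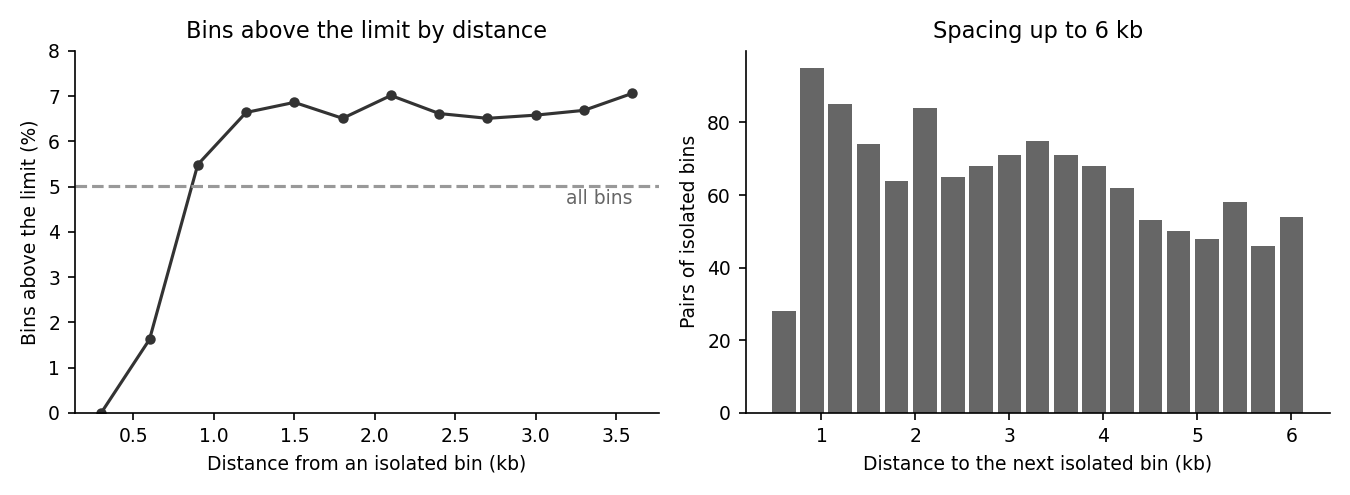
Left, share of bins above the limit (%) by distance from an isolated bin (kb), with the 5.02% of all bins as a dashed line. Right, number of consecutive pairs of isolated bins by their distance (kb) up to 6 kb, with 28 pairs at 600 bp and 95 at 900 bp.

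The members with the highest ratio were bins without an EHMTDD1 tag. On X from 11178301 to 11178600, EHMT+ had 45 tags and EHMTDD1 had 0. With 3 counts as the limit that 0 allows in 1 library, EHMT+ was at least 15-fold higher. By midpoint, in 9 windows of 300 bp centred on the bin, EHMT+ had 12, 16, 20, 22, 22, 30, 37, 38 and 18 tags from left to right. EHMTDD1 had 12, 19, 27, 0, 0, 12, 44, 44 and 4 tags. Among these windows only the bin and the one left of it were empty in the mutant. The next window was above the control on the left and below it on the right, and the mutant was again above the control at 600 and 900 bp to the right. The left neighbour was just under the limit of 1.9, so this member was close to being a pair of adjoining bins above it.

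On 3R from 1032001 to 1032300, EHMT+ had 43 tags and EHMTDD1 had 0, at least 14.3-fold. The 9 windows held 15, 17, 20, 16, 20, 31, 27, 19 and 19 tags in EHMT+ and 8, 12, 29, 5, 0, 7, 14, 7 and 43 tags in EHMTDD1. The mutant was below the control in 7 of the 9 windows, and above it 600 bp to the left and 1200 bp to the right. On 2L from 15887101 to 15887400 the counts were 39 and 0, at least 13-fold. The windows held 11, 20, 16, 23, 13, 24, 18, 18 and 10 tags in EHMT+ and 12, 13, 17, 1, 0, 7, 20, 24 and 20 tags in EHMTDD1. Here the control also had a lower window at the bin, between 23 and 24 tags, and the mutant was above the control by 600 bp to each side.

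The highest ratio on 3L was from 15526201 to 15526500, with 35 and 0 tags, at least 11.7-fold. EHMT+ had 15, 10, 18, 21, 14, 16, 14, 17 and 10 tags in the windows and EHMTDD1 had 9, 6, 12, 4, 0, 3, 17, 26 and 20. Of the 5 highest ratios over all arms, the remaining 2 were on 2L from 20068501 to 20068800 and on X from 233101 to 233400, each with 39 and 0 tags. The first was a dip with a high right shoulder, since EHMTDD1 had 43 and 32 tags in the windows at 600 and 900 bp to the right where EHMT+ had 32 and 25. The second had few tags on its left in both libraries, with 1 and 3 tags in the windows at 900 and 600 bp in EHMT+ and also in EHMTDD1. Stretches without a midpoint at these 5 members ran from 686 to 841 bp in EHMTDD1.

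**Figure D5:**
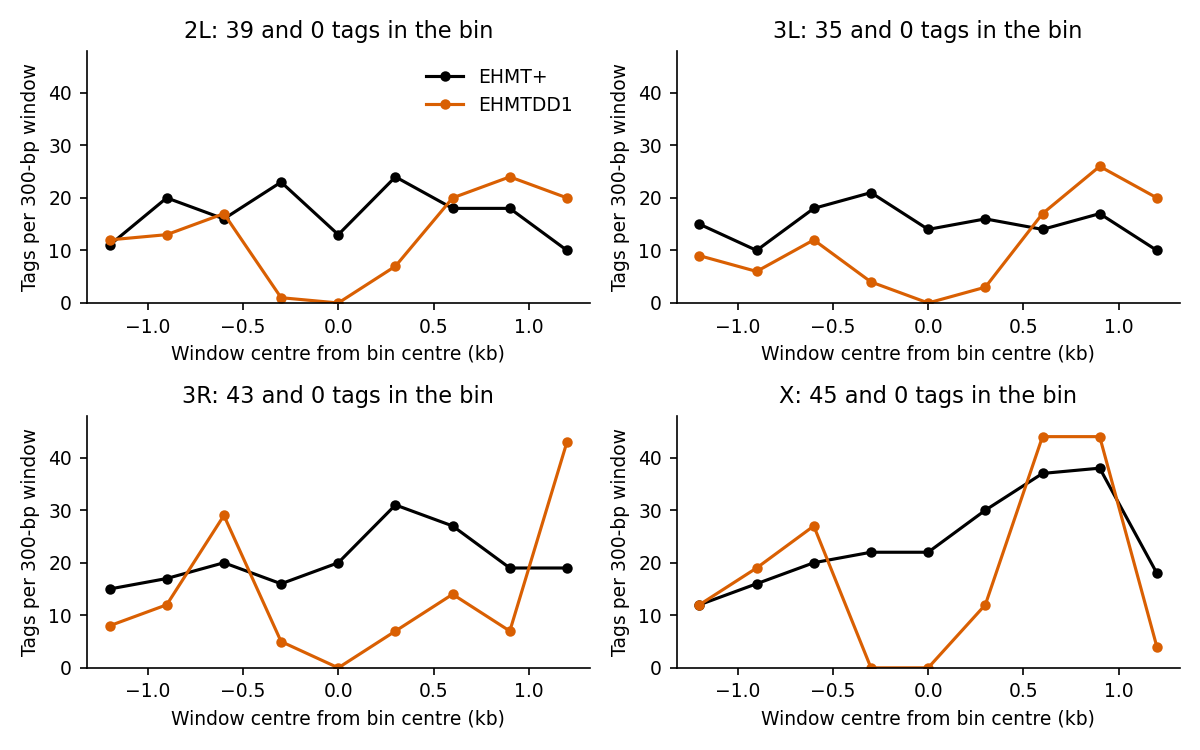
Tags per 300-bp window, by midpoint, against the distance of the window from the bin centre (kb) in EHMT+ (black) and EHMTDD1 (orange) for the isolated bin with the highest ratio on each arm. All 4 bins hold 0 EHMTDD1 tags, and EHMTDD1 returns to 17 or more tags within 600 bp on at least 1 side of each.

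The members with the most EHMT+ tags had lower ratios than these and less regular profiles. On X from 11664001 to 11664300 the counts were 139 and 33, a ratio of 4.21, and the EHMTDD1 windows of 1, 1, 2, 11, 24, 28, 38, 72 and 47 tags were higher on the right of the bin than on its left. EHMT+ had 15, 13, 27, 52, 71, 65, 29, 60 and 73 tags, with its highest values at the last window and at the bin. On 3R from 3846901 to 3847200 there were 114 and 27 tags, a ratio of 4.22, and EHMTDD1 had between 1 and 19 tags in all 9 windows against 23 to 62 in EHMT+. The mutant was below the control in all of them, with no dip at the bin itself.

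On 3L from 23034601 to 23034900 the counts were 114 and 18, and on 2L from 21609301 to 21609600 they were 98 and 16, ratios of 6.33 and 6.12. The bin on 2L lay in the densest Mb named above. Its EHMTDD1 windows were 0, 35, 40, 39, 5, 12, 30, 6 and 19 tags, so low windows also lay 1200 bp to its left and 900 bp to its right, against 33 to 67 tags in all EHMT+ windows. At 3L the EHMTDD1 windows ranged from 130 to 0 tags within 1.2 kb on either side, and those of EHMT+ from 97 to 4. Both libraries had their highest window at the left end and their lowest at the right end.

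The 3 members with the greatest width, all on 3L from 23101201, 18454201 and 9921601, had widths of 2350, 2275 and 2225 bp. At 18454201 the EHMTDD1 windows held 2, 2, 1, 2, 1, 2, 5, 8 and 36 tags and those of EHMT+ 11, 14, 2, 7, 7, 15, 20, 27 and 26, so the mutant was low over most of the region and the neighbours, at log2 ratios of 1.32 and 1.86, stayed under the limit. The 3 with no measurable dip were the bin on 3R from 3846901, a bin on 3L from 23238901 with 103 and 22 tags and a bin on X from 10481701 with 55 and 14 tags. In the last the mutant had 12, 8 and 4 tags in the 3 central windows and 44 and 53 in the next 2 to the right.

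The closest members were 600 bp apart, parted by 1 bin at or below the limit, and the 3 of these 28 pairs with the most EHMT+ tags are described. In the pair on 3L that starts at 12768601 and 12769201 the members had 71 and 14 tags and 67 and 17 tags, and the bin between them had a log2 ratio of 1.56. On 3R from 7228201 and 7228801 they had 54 and 9 tags and 45 and 10 tags, with 1.70 between them. On 3L from 20816701 and 20817301 they had 71 and 16 tags and 23 and 4 tags, with 1.75 between them. In each pair the intervening bin was itself above a log2 ratio of 1. A 300-bp tag that touches this bin also touches a member, unless it fills the bin exactly. The counts of the intervening bin are thus nearly all tags of the members, and its ratio largely follows from the rule.

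The rule turned around found few bins. With the libraries exchanged, 65 of 218690 bins with 20 or more EHMTDD1 tags were isolated, against 4257 in the direction of loss. Within 300 bp of their centre EHMTDD1 had 67.1 tags per kb, above its 43.9 tags per kb at 1000 to 1500 bp, and EHMT+ had 14.7 tags per kb against 41.0 tags per kb. The exchanged rule used these central tags. At 600 to 900 bp, which it did not use, the density was 0.894 times the outer level in EHMT+ (0.837 to 0.953) and 0.985 times in EHMTDD1 (0.927 to 1.05), and the second cannot be told from 1 at this depth. Here too the stretch adjoins neighbours that the rule limited.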

How the data were processed

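The authors sequenced 36-bp single reads from larval H3K9me2 ChIP, aligned them to BDGP Release 5 (dm3) with the Illumina pipeline allowing 1 mismatch, kept tags with a unique position, lengthened each to 300 bp along its strand and brought both libraries down to the total of the smaller one. The aligner version is not given in the sources used here. The deposited values are the first and last base and the strand of each tag, with no other unit, and 0 tags shared a start and strand. How tags were drawn in the equalization, and the extension, affect every count.

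Tags were counted in 300-bp bins from base 1, and profiles used tag midpoints. Arm ends were taken from the last tag. Samples were grouped by the genotype label. Ratios have exact conditional binomial intervals, and regions within 3000 bp of each other share flanking tags. No test between genotypes was made. Bin counting, selection and width were tested on simulated data. The members, named regions and measures were chosen with earlier results of these data known. Named regions were, per arm, the highest ratio and most EHMT+ tags, then the 5 highest ratios, the 3 bins on each side of the limit, the 3 closest pairs and the 3 widest and narrowest dips, with ties going to more EHMT+ tags (for pairs, their sum), then chromosome and start. Alternatives covered the pseudocount, grid, tag counting and length, tag minimum, limit, neighbours, scaling, excluded end, step and flank. Arm 2R was not analysed here. Work was done in Python 3.11.15 (tables with pandas 2.3.3, arrays with NumPy 2.4.6, intervals with SciPy 1.17.1) and drawn with Matplotlib 3.10.9.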

Additional observations from a re-analysis of the deposited data

How the results depend on the processing

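No paired analysis was possible because there is a single library for either genotype, and no replicate could be left out. The shoulder and its alternatives were added after the data were seen. The number of isolated bins stayed within 1.5 times 4257 under 10 of 12 alternatives. It was 2151 with at least 30 EHMT+ tags and 1528 with neighbours not above a log2 ratio of 1. In this last setting the ratio of EHMT+ to EHMTDD1 at 600 to 1500 bp fell below 1, to 0.977, the share of isolated bins was 13.2%, the shoulder 1.22 and the median spacing 42000 bp.

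The share, the ratio at 600 to 1500 bp, the shoulder and the median spacing were, in this order, 49.7%, 1.07, 1.09 and 15600 bp with tags counted once by midpoint, 47.7%, 1.07, 1.09 and 14700 bp with the 36 bp read, 39.9%, 1.05, 1.13 and 15900 bp with a limit of 2.2, and 33.8%, 1.02, 1.15 and 11100 bp with a limit of 1.6. The width was 348, 439 and 649 bp in the first 3 of these. With at least 30 EHMT+ tags the share was 33.5%, the ratio 1.05 and the spacing 23700 bp, and with at least 10 the ratio was 1.03 and the spacing 10200 bp. With 2 neighbours on each side the share was 35.5%, the ratio 1.03 and the shoulder 1.16. The ratio was 1.03 with scaled EHMTDD1 counts and 1.03 with 2 Mb left out. In all 12 alternatives, each of which also limits the neighbours, the shoulder was above 1, from 1.09 to 1.22. For these shifts the cause was not tested. A median of 5 EHMTDD1 tags limits what a single isolated bin can show.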
